A study of Mus musculus with 4 samples.

Results

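The p53 target genes other than Cdkn1a, the gene of the cell cycle inhibitor p21, were followed in basal cells of mouse tail epidermis on 4 expression arrays. The set comprised 10 genes, Mdm2, Ccng1, Trp53inp1, Sesn1, Sesn2, Bbc3, Bax, Zmat3, Perp and Gadd45a, and held every probe set whose annotated symbol was one of them. These were 18 probe sets for 9 genes, of 45037 probe sets and 18193 named genes in all. Bax had no named probe set here and has no value below. Of the 18 probe sets, 16 reached the intensity filter, a mean log2 value of 5.42 over the 4 arrays, and each of the 9 genes kept at least 1.

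The arrays came from CD-1 mice that carried the RosaYFP reporter with a tamoxifen-dependent Cre recombinase, driven by the involucrin promoter (InvCREER, 2 arrays) or by the keratin 14 promoter (K14CREER, 2 arrays). YFP-positive cells with high alpha6 integrin and no surface CD34 were sorted after 10 ug of tamoxifen in InvCREER mice and 1 ug in K14CREER mice, so the dose cannot be told apart from the Cre line. The titles give 3.5 days after induction and the treatment protocol gives 4 days. The labels do not state that the 2 arrays of each line were separate animals. The p-values then cover only the scatter among these 4 arrays, and how much of it is technical is not known. Keratin 14 is made by basal keratinocytes, whereas involucrin is best known from the suprabasal layers. The comparison therefore asks how the basal cells marked by InvCREER differ from those marked by K14CREER.

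The transcription factor p53 is stabilised by DNA damage and other stress and binds response elements near its target genes. Its targets include a negative feedback loop through Mdm2, cell cycle inhibitors led by p21, genes of apoptosis and genes that restrain growth signalling. In epidermis the related factor p63, which maintains basal keratinocytes, binds similar elements, and Perp is known there both as a p53 target and as a p63 target needed for desmosomes.

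A p53 response element consists of a pair of 10-base motifs. The 250 bases before the annotated starts of the p53 targets were searched for exact matches to this consensus p53 decamer, a palindrome that reads the same on both strands. Sequences were those of RefSeq on GRCm38.p6, and 7 of the 10 genes, Mdm2, Ccng1, Sesn1, Sesn2, Bbc3, Bax and Gadd45a, had an entry, with 10 windows among them. The decamer was found in 5 of the 10 windows, those of Ccng1, Mdm2, Gadd45a, Bax and the second start of Sesn1, against 7.13% of all 32851 windows of this length. In Ccng1 it lies next to a second decamer, with 1 mismatch to the consensus in the 20 bases of the pair. Adjacent pairs with at most 1 mismatch occur in 25 of all windows (0.0761%). The best adjacent pair had 5 mismatches in the Mdm2 window and 3 in those of Gadd45a, Bax and the second Sesn1 start. The first Bbc3 window, without an exact decamer, also had 3. The 4 windows of measured genes with an exact match are shown because they hold a match to the motif of p53 response elements, with the decamer in capitals. The Sesn1 window lies within the gene, before an internal start. A match is a description of the letters and not evidence of binding in these cells.
Ccng1, chr11:40755287-40755536, reverse strand: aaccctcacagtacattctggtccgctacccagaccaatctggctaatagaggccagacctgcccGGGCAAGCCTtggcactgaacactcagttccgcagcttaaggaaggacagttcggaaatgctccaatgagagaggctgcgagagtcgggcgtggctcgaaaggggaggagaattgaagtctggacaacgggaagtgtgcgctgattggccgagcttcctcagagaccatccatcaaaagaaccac
Mdm2, chr10:117710759-117711008, reverse strand: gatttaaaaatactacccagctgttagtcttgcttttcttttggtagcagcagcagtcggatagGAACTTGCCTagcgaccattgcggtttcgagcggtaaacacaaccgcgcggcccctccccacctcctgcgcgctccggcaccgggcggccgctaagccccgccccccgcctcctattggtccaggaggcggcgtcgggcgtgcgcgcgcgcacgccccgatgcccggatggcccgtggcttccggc
Gadd45a, chr6:67037408-67037657, reverse strand: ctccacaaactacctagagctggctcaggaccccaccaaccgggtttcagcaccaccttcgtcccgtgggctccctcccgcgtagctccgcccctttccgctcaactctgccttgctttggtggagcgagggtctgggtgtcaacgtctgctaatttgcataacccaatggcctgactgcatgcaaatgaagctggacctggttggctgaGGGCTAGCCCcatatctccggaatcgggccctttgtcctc
Sesn1, chr10:41887189-41887438, forward strand: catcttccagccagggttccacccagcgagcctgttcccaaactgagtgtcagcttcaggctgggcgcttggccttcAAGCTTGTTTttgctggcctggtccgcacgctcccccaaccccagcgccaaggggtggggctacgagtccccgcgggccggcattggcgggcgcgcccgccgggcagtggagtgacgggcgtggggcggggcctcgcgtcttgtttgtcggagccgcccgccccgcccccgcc

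The sorted population was checked first. Krt14, the basal keratin gene, was at 13.82 and 13.85 in InvCREER, against 14.14 and 14.17 in K14CREER, and Itga6, the alpha6 integrin gene, at 11.62 and 11.77 in InvCREER, against 12.38 and 12.41 in K14CREER. Cd34 was at 3.88 and 3.66 in InvCREER, against 6.07 and 3.59 in K14CREER, so that K14CREER 1 stood apart in a marker the sort excluded. InvCREER 1 stood apart in sex-linked genes, with Xist at 12.56 and Uty at 4.70. Xist was at 8.26 in InvCREER 2, against 7.25 and 5.44 in K14CREER. Uty was at 7.85 in InvCREER 2, against 7.19 and 7.48 in K14CREER. Sex-linked genes thus differed within the InvCREER pair, so these 2 arrays do not repeat 1 RNA sample. Neither K14CREER array read like InvCREER 1 in these genes, and their part in the differences between the lines was not tested. With any 1 of the 4 arrays left out, the count of called p53 target probe sets was again 0. In such a fit 1 line has a single array, which is assumed to vary like the 2 arrays of the other line.

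None of the 9 measured p53 targets passed the test between the lines, which with 2 arrays each does not show that they did not differ. With limma and Benjamini-Hochberg adjustment over 22519 probe sets, 0 of the 16 tested probe sets were called at an adjusted p under 0.05, where 0.959% of all tested probe sets were called, 0.684% as higher in InvCREER and 0.275% as lower. At an unadjusted p under 0.05 there were 2 of 16, 1 each of Perp and Sesn2, against 13.9% of all tested probe sets. With 1 probe set per gene, the one with the highest mean, 7 of 9 genes had a higher mean in InvCREER, against 48.2% of all tested genes, and 2, Ccng1 and Trp53inp1, a lower one. Their median difference was 0.32 in log2 units, against -0.01 over all 11270 tested genes. Both arrays of one line lay above both of the other for Mdm2, Sesn2 and Perp, 3 of 9 genes, against 45.3% of all tested genes. By probe set this was 5 of 16, against 42.0% of all tested probe sets. All 5 were higher in InvCREER and 0 lower, where 20.0% and 22.1% of all tested probe sets were higher and lower without overlap. Of the 16 probe sets 9 had a higher mean in InvCREER, against 49.1% of all tested probe sets. A lower signal in sorted bulk cells can mean fewer cells with the transcript or less of it per cell, which cannot be told apart.

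**Figure D1:**
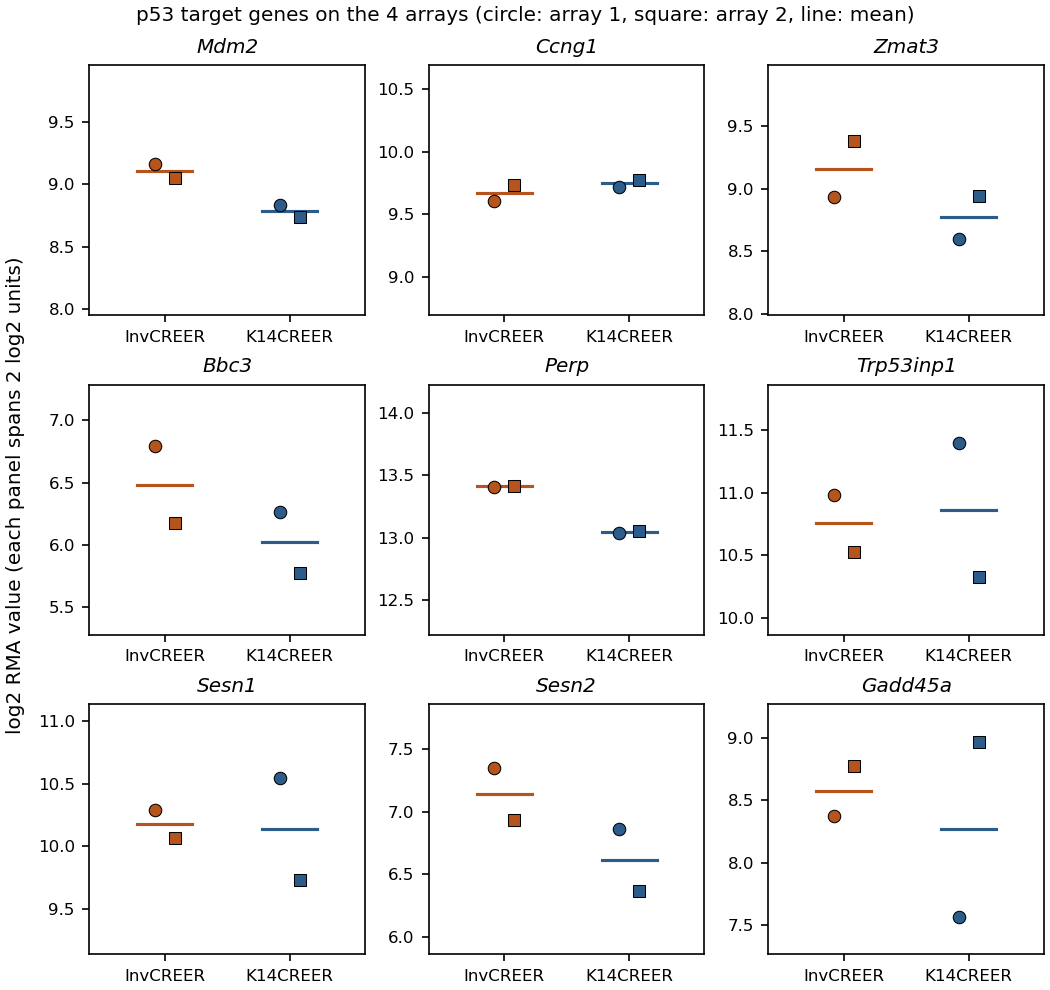
Log2 RMA values of the 9 measured p53 target genes on each array, by Cre line, for the probe set of each gene with the highest mean. Circles are array 1, squares array 2 and lines the means of 2 arrays. The lines do not overlap in Mdm2, Sesn2 and Perp, whereas the 2 K14CREER arrays lie on both sides of the InvCREER arrays in Trp53inp1, Sesn1 and Gadd45a.

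Cdkn1a, by contrast, was called. On its brighter probe set the log2 values were 11.58 and 11.50 in InvCREER, against 9.34 and 9.29 in K14CREER, a difference of 2.22 (95% interval 1.85 to 2.60, adjusted p = 0.00663 by limma). The dimmer Cdkn1a probe set gave 2.07 (95% interval 1.57 to 2.58, adjusted p = 0.0153 by limma). Among the 9 measured genes of the set the highest upper bound of any 95% interval was 1.42, on Gadd45a, which is below the lower bounds of both Cdkn1a probe sets. The intervals of all 16 probe sets thus lay below those of Cdkn1a. They come from the same 4 arrays and were not adjusted for their number, and the difference between the genes was not itself tested.

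**Figure D2:**
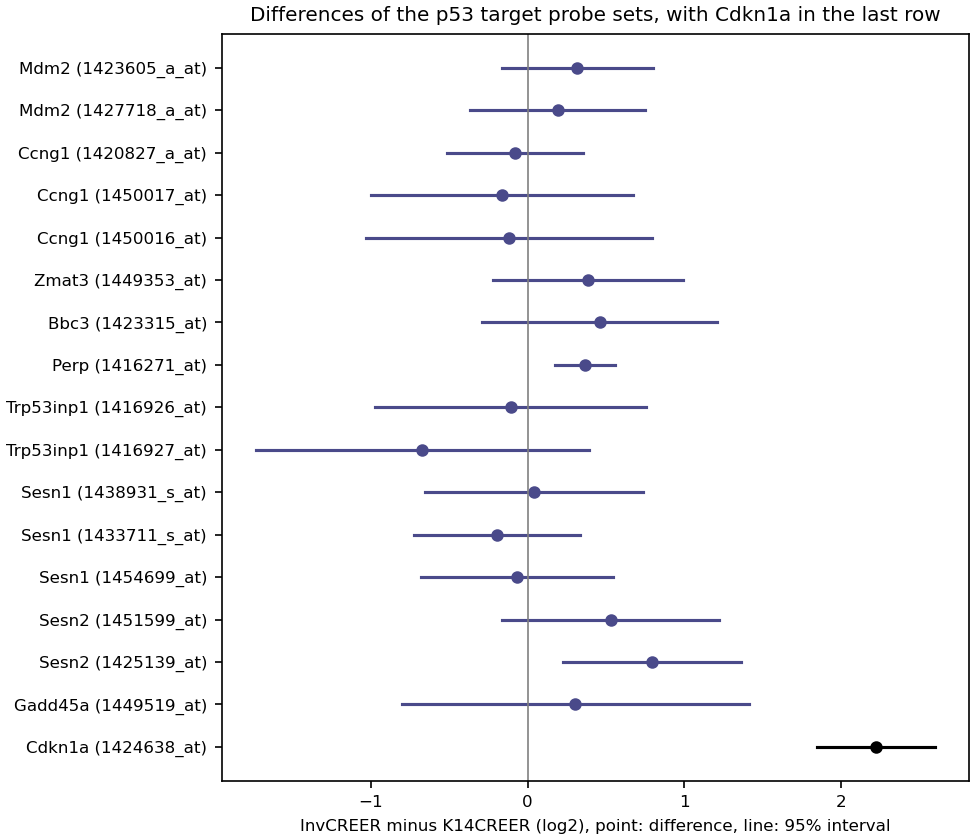
Difference between InvCREER and K14CREER in log2 units for the 16 tested probe sets of the p53 targets, with 95% intervals from limma, and for the brighter Cdkn1a probe set in the last row. The intervals of Perp and of 1 Sesn2 probe set exclude 0 before adjustment, and the upper bounds reach at most 1.42, against an interval of 1.85 to 2.60 for Cdkn1a.

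The feedback genes differed by less than the test could call. Mdm2 encodes the ubiquitin ligase that binds p53 and marks it for degradation. Its brighter probe set read 9.16 and 9.05 in InvCREER, against 8.84 and 8.74 in K14CREER. Both InvCREER arrays lay above both K14CREER arrays, by 0.32 (SE 0.20, adjusted p = 0.595 by limma). On the dimmer tested probe set of Mdm2 the values were 7.54 and 7.59 in InvCREER, against 7.49 and 7.25 in K14CREER, with a difference of 0.19 (adjusted p = 0.834 by limma). The remaining Mdm2 probe set was below the filter, at 3.58 to 3.95 on the 4 arrays.

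Ccng1 encodes cyclin G1, which recruits a phosphatase to Mdm2. On its brightest probe set the values were 9.61 and 9.73 in InvCREER, against 9.72 and 9.78 in K14CREER. The groups overlapped, and the 95% interval of the difference ran from -0.51 to 0.35 (difference -0.08, adjusted p = 0.929 by limma), which corresponds to a ratio of 0.701 to 1.28. The other 2 Ccng1 probe sets were annotated to the same source sequence as the first and, like it, read higher on array 2 of both lines. The dimmest was at 6.88 and 7.47 in InvCREER, against 6.84 and 7.75 in K14CREER. The next was at 7.45 and 8.21 in InvCREER, against 7.70 and 8.29 in K14CREER. Their differences were -0.12 and -0.16, and both turned positive without InvCREER 1 (0.18 and 0.21) and without K14CREER 2 (0.34 and 0.13).

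Zmat3 encodes a zinc finger protein that binds RNA. It read 8.93 and 9.38 in InvCREER, against 8.60 and 8.95 in K14CREER. The lower InvCREER array fell just under the higher K14CREER array, and the difference of 0.39 (SE 0.25, adjusted p = 0.614 by limma) was not called.

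Trp53inp1, a p53-inducible nuclear protein linked to cell death and autophagy, showed one of the wider spreads within a line. It read 10.98 and 10.52 in InvCREER, against 11.40 and 10.32 in K14CREER. The K14CREER arrays lay on both sides of the InvCREER arrays and were 1.08 apart, a gap larger than that of 97.3% of all tested probe sets. The difference between the lines was -0.11 (SE 0.36, adjusted p = 0.956 by limma), and it was 0.43 without K14CREER 1 and 0.12 without InvCREER 2. On the second Trp53inp1 probe set, at 5.45 and 4.86 in InvCREER and 6.45 and 5.20 in K14CREER, the K14CREER arrays were 1.25 apart. That probe set had the lowest difference of the 16, -0.67 (adjusted p = 0.615 by limma), and 1 of its InvCREER values and 1 of its K14CREER values lay under the filter value of 5.42.

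Among the apoptosis genes Perp came closest to a call. Perp encodes a tetraspan membrane protein of desmosomes that can also promote cell death. It read 13.41 and 13.41 in InvCREER, against 13.03 and 13.06 in K14CREER, the smallest gaps between arrays of a line among the 16 probe sets. The groups did not overlap. The difference was 0.36 (SE 0.08, 95% interval 0.17 to 0.56, adjusted p = 0.102 by limma), a ratio of 1.29. With the filter at the 75th percentile, which left 11260 probe sets, Perp was called (adjusted p = 0.0331 by limma). Without the variance trend its adjusted p was 0.494 by limma. With probe sets open to more than 1 transcript dropped, which left 16277, it was 0.248 by limma. The cause of these shifts was not tested. The difference was 0.35 to 0.38 with any 1 array left out, none of which gave a call.

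Some genes of desmosomes and of suprabasal keratinocytes also differed on the same arrays. Of 10 tested desmosome genes 3 rose, the cadherin genes Dsc1 by 3.06, Dsg1b by 2.22 and Dsg1a by 1.29 in log2 units, while 0 fell, against 0.958% of tested genes called higher and 0.373% called lower. The calls of Dsg1b and Dsg1a ended when either K14CREER array was left out, and that of Dsg1a also without the intensity filter, without the variance trend and with a robust variance. Jup, which encodes plakoglobin, was at 0.77 (adjusted p = 0.201 by limma) and the cadherin genes Dsg2 and Dsc2 at -1.19 and -1.36 (adjusted p = 0.0657 and 0.104 by limma), both without overlap. Counting 1 probe set per gene, Dsg2 and Dsc2 were called lower (adjusted p = 0.0269 and 0.0401 by limma). Dsg2 was also called lower with the mean of probe sets (adjusted p = 0.0368 by limma), with the filter at the 75th percentile (adjusted p = 0.0340 by limma) and without either InvCREER array, and Dsc2 without InvCREER 2 (adjusted p = 0.0253 by limma). Suprabasal markers had a higher mean in InvCREER for 6 of 7, against 48.2% of all tested genes, with 4 of 7 not overlapping, against 45.3%. The exception was Ivl, the involucrin gene, at 4.78 and 5.06 in InvCREER, against 4.58 and 6.23 in K14CREER. Of the 5 tested, with Ivl and Flg under the filter, 3 rose, Krt1, Krt10 and Sbsn. The mean level of all 7 markers, Ivl and Flg included, was 9.91 and 10.20 in InvCREER, against 9.21 and 9.57 in K14CREER. The part of these changes in the Perp values was not tested.

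Bbc3 encodes PUMA, a BH3-only protein that activates the mitochondrial pathway of apoptosis together with effectors such as Bax. It read 6.79 and 6.17 in InvCREER, against 6.26 and 5.78 in K14CREER. The groups overlapped, the arrays of InvCREER being 0.62 apart and those of K14CREER 0.49. The difference was 0.46 (SE 0.31, 95% interval -0.29 to 1.21, adjusted p = 0.629 by limma), and without InvCREER 1 it was 0.15.

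Other members of the BCL2 family likewise held no call. Of 13 listed genes 12 were tested, 0 were called and 0 had an unadjusted p under 0.05 by limma, against 16.1% of all tested genes. Their median difference was -0.07. Bcl2, the founding inhibitor of apoptosis, read 6.93 and 7.60 in InvCREER, against 7.73 and 8.27 in K14CREER, a difference of -0.74 (adjusted p = 0.398 by limma). The BH3-only genes Bmf, at 0.39, and Bcl2l11, at -0.32, each turned sign with 1 array left out, Bmf without InvCREER 1 (-0.05) and Bcl2l11 without K14CREER 1 (0.03). Mcl1, an inhibitor of apoptosis outside the rule for named genes that was added after its values were seen, was at -0.06.

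The sestrins restrain mTORC1, the kinase complex that promotes growth, and Sesn2 is also induced by other stress pathways. Sesn2 was the p53 target with the largest difference in either direction. Its dimmer probe set read 7.04 and 7.10 in InvCREER, against 6.13 and 6.42 in K14CREER. The brighter probe set read 7.35 and 6.94 in InvCREER, against 6.87 and 6.37 in K14CREER. Neither probe set overlapped between the lines. The differences were 0.79 (SE 0.24, 95% interval 0.22 to 1.36, adjusted p = 0.196 by limma) and 0.53 (SE 0.29, 95% interval -0.16 to 1.22, adjusted p = 0.511 by limma). The mean of both gave 0.66 (adjusted p = 0.134 by limma). Both probe sets kept a positive difference with any 1 array left out, from 0.65 to 0.94 on the dimmer and from 0.28 to 0.78 on the brighter.

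Sesn1 was not called either, and its difference from Sesn2 was not tested. Its brightest probe set read 10.29 and 10.06 in InvCREER, against 10.54 and 9.73 in K14CREER, with the InvCREER arrays between the K14CREER arrays. The difference was 0.04 (SE 0.29, adjusted p = 0.981 by limma). Both other tested Sesn1 probe sets had differences of -0.07 and -0.19, and on all 3 the higher K14CREER value was on array 1. Without K14CREER 1 the 3 differences were 0.45, 0.23 and 0.06. On the first probe set the sign was also negative without InvCREER 1 (-0.07) and without K14CREER 2 (-0.37), and with the mean of the probe sets (-0.07). The remaining Sesn1 probe set, under the filter in mean, read 5.45 and 5.27 in InvCREER, against 4.86 and 4.91 in K14CREER, and was not tested.

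Gadd45a encodes a stress-induced protein that binds PCNA and p21 and activates stress kinases. It read 8.37 and 8.78 in InvCREER, against 7.57 and 8.97 in K14CREER. Its K14CREER arrays were 1.40 apart, more than in 99.1% of all tested probe sets, and enclosed both InvCREER arrays. The difference of 0.31 (SE 0.46, 95% interval -0.80 to 1.42, adjusted p = 0.876 by limma) became -0.40 without K14CREER 1 and 1.01 without K14CREER 2.

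**Figure D3:**
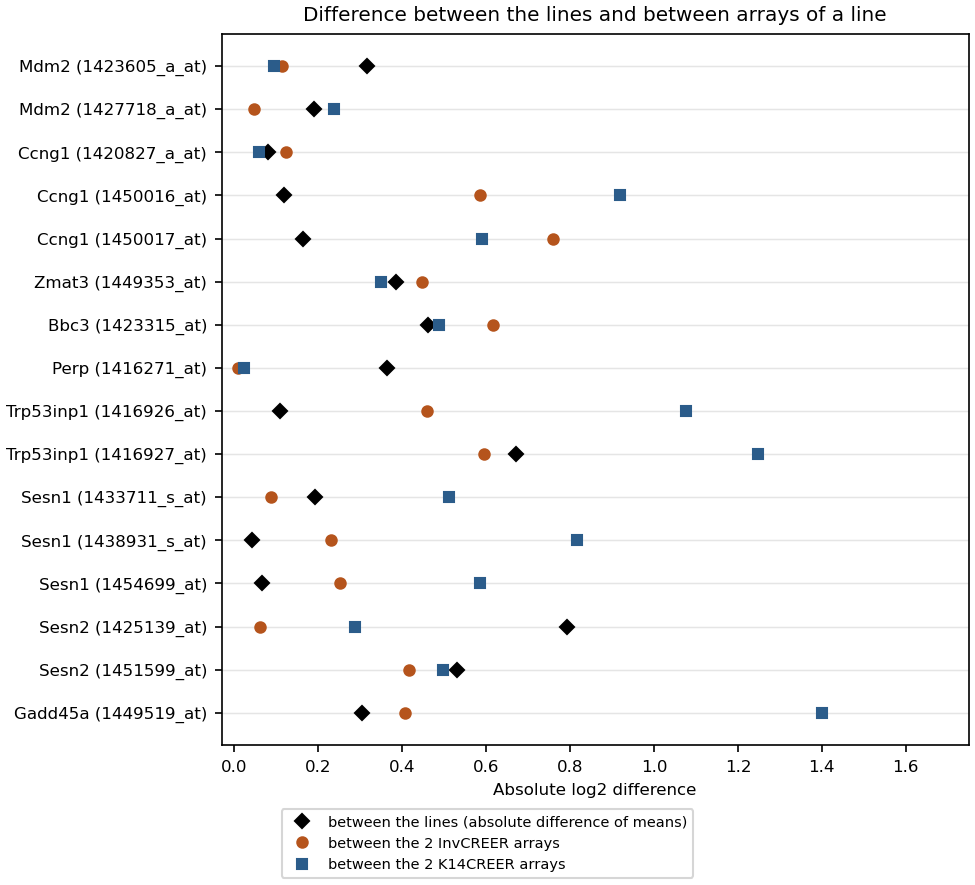
Absolute log2 difference between the means of the lines (diamonds), between the 2 InvCREER arrays (circles) and between the 2 K14CREER arrays (squares) for the 16 tested probe sets. The K14CREER gap exceeds the difference between the lines in 10 of 16, and it is widest in Gadd45a, at 1.40.

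The gap between the K14CREER arrays exceeded the difference between the lines in 10 of 16 probe sets (62.5%), against 53.7% of all tested probe sets. Its median was 0.50, against 0.25 over all tested probe sets. In InvCREER the median gap was 0.33, against 0.25. The 2 arrays of a line differed in the same direction, array 2 against array 1, in both lines for 13 of 16 probe sets. The share over all tested probe sets was not counted. Same-numbered arrays deviated together there too (r = 0.38), and whether 13 of 16 is particular to the p53 targets was not tested. Array 2 was the higher one for Ccng1, Zmat3, Perp and Gadd45a and the lower one for Trp53inp1 and Bbc3.

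Of 5 tested paralogs of the p53 targets 1 fell and 0 rose, where 1.33% of tested genes were called. Ccng2, which encodes cyclin G2, a relative of cyclin G1 induced by FoxO factors, read 9.51 and 9.51 in InvCREER, against 10.98 and 10.69 in K14CREER. It fell by 1.32 (SE 0.18, adjusted p = 0.0377 by limma), a call that ended when either K14CREER array was left out (adjusted p = 0.156 and 0.0770 by limma) and without the variance trend (adjusted p = 0.0757 by limma). Gadd45b, a relative of Gadd45a, read 9.22 and 9.84 in InvCREER, against 8.17 and 8.20 in K14CREER. Its difference of 1.34 (SE 0.26, adjusted p = 0.0801 by limma) was not called, but it was with 1 probe set per gene (adjusted p = 0.0325), with the mean of probe sets (adjusted p = 0.0221) and with the filter at the 75th percentile (adjusted p = 0.0331), all by limma. Without InvCREER 1 its adjusted p was 0.0162 by limma, with the spread taken from the K14CREER pair, only 0.03 apart, and limma's shared variance. Gadd45g was at 0.83, Trp53inp2 at 0.76 and Sesn3, a FoxO-regulated sestrin, at 0.23.

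Of 45 further p53 targets 41 had a named probe set and 36 were tested. Cdkn1a was the 1 gene that rose, and 0 fell, where 1.33% of tested genes were called. The death receptor genes Fas and Tnfrsf10b were among the 5 under the filter. Higher means in InvCREER were seen for 14 and lower ones for 22, with a median of -0.21. Of the 36, 5 lay higher and 16 lower without overlap, against 21.3% and 24.1% of all tested genes. The largest differences after Cdkn1a were decreases that did not pass the test. Kitl, the ligand of the Kit receptor, was at -1.35 (adjusted p = 0.0916 by limma) and Trim32, a ubiquitin ligase, at -1.22 (adjusted p = 0.0860 by limma). Dram1, an inducer of autophagy, was at -1.21 (adjusted p = 0.235 by limma), Trp73, the p53 relative p73, at -1.13 (adjusted p = 0.0784 by limma) and the thiamine transporter gene Slc19a2 at -0.85 (adjusted p = 0.147 by limma). Sfn, the 14-3-3 protein of stratified epithelia, was added after its values were seen. It read 10.99 and 11.04 in InvCREER, against 10.25 and 10.15 in K14CREER, a difference of 0.82 (adjusted p = 0.0699 by limma). With 1 probe set per gene Kitl, Trim32, Trp73 and Sfn were called (adjusted p = 0.0293 to 0.0369 by limma).

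Regulators of p53 held no call. Trp53 itself had no named probe set here. Of 21 tested regulators 0 were called by limma, 5 had an unadjusted p under 0.05, against 16.1% of all tested genes, and their median difference was -0.03. Mdm4, the inhibitory partner of Mdm2, read 9.36 and 9.14 in InvCREER, against 8.67 and 8.72 in K14CREER, on its brightest probe set. The difference was 0.55 (adjusted p = 0.301 by limma). Its other tested probe sets were at 0.47 and -0.03, and the mean of probe sets gave 0.33 (adjusted p = 0.487 by limma). Hipk2, a kinase that phosphorylates p53, was at 0.90 (adjusted p = 0.213 by limma) on its brightest probe set. That difference was 1.22 without InvCREER 2 and 0.57 without InvCREER 1. The other tested Hipk2 probe sets ran from 0.10 to 0.77, and the mean of probe sets gave 0.53 (adjusted p = 0.410 by limma). The checkpoint kinase genes Chek1 and Chek2 were at -0.74 and -0.58 (adjusted p = 0.347 and 0.314 by limma), and the ubiquitin ligase gene Rchy1 at -0.35. Trp63, the p63 gene, read 11.96 and 11.96 in InvCREER, against 12.54 and 12.35 in K14CREER, a difference of -0.49 (adjusted p = 0.126 by limma) on its brightest probe set. Of its 3 other tested probe sets 2 were lower and 1 higher in InvCREER.

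**Figure D4:**
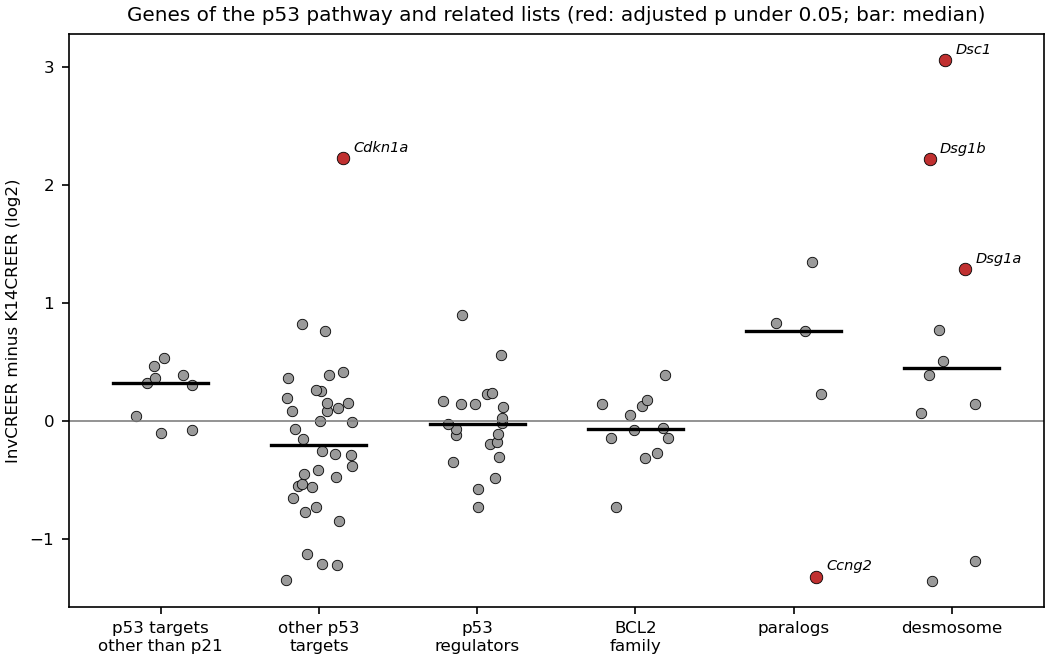
Difference between InvCREER and K14CREER in log2 units for the tested genes of the p53 target set and of 5 related lists, 1 probe set per gene. Red points passed an adjusted p under 0.05 and bars are medians. The 9 p53 targets lie between -0.11 and 0.53, with Cdkn1a at 2.22 among the further targets and Ccng2 at -1.32 among the paralogs.

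The arrays carried other differences that were not tested for a part in these values. Of all tested genes 48.2% had a higher mean in InvCREER, 1.33% were called and 16.1% had an unadjusted p under 0.05 by limma. The mean of a marker list below includes its genes under the filter. Sebaceous gland markers lay higher in InvCREER without overlap for 9 of 9 genes, against 21.3% of all tested genes, and 1 of 9, Dgat2, was called. Their mean was 10.72 and 9.31 in InvCREER, against 7.91 and 7.32 in K14CREER. Langerhans and myeloid markers had a higher mean for 7 of 8, with Ptprc under the filter and 0 of 7 called by limma (5 at an unadjusted p under 0.05). They averaged 7.74 and 6.41 in InvCREER, against 6.01 and 5.64 in K14CREER. Proliferation genes had a lower mean for 11 of 11, against 5842 of all 11270 tested genes, with 0 of 11 called by limma (10 at an unadjusted p under 0.05), at 9.19 and 9.53 in InvCREER and 10.16 and 10.60 in K14CREER. Basal keratinocyte markers lay lower without overlap for 7 of 7, against 24.1% of all tested genes, with 1 of 7 called, at 12.10 and 11.94 in InvCREER and 12.83 and 12.72 in K14CREER. Dermal fibroblast markers had a lower mean for 8 of 8, at 5.94 and 5.72 in InvCREER and 7.03 and 6.23 in K14CREER, with 4 under the filter and 1 of the other 4, Sparc, called (adjusted p = 0.00612 by limma). Hair follicle markers went both ways, 5 with a higher mean and 2 with a lower one. Of the 4 tested, 1 was called, as lower (adjusted p = 0.0292 by limma). Melanocyte markers had a higher mean for 1 and a lower one for 5, with 0 of 3 tested called.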

How the data were processed

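Basal cells were profiled on 4 Affymetrix arrays, 2 InvCREER and 2 K14CREER, each from 100 ng of total RNA amplified by 3' in vitro transcription (source: the labels' protocols). The deposited values are log2 probe set summaries that the authors made by RMA, and the submitters' processing notes name Expression Console 1.1 as the software. RMA forces a common distribution on the arrays, so that a change in total RNA does not show. Array medians were 5.41 to 5.44, and the number of arrays limits the precision.

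After 64 control probe sets were set aside, 22519 of 45037 probe sets had a mean at or above the median, 5.42, and were tested with limma 3.58.1 in R 4.3.3 (lmFit, eBayes with a mean-variance trend, no block, 2-sided, Benjamini-Hochberg adjustment over all of them). With 2 arrays a line, exact permutation reaches no p under 0.333. Genes were named from the platform annotation (34945 probe sets with 1 symbol, 932 with several, 9160 unnamed here), checked by Entrez number against the RefSeq table of GRCm38.p6, and 1 listed symbol was updated. Names were fixed by rule as all 10 p53 targets, called genes and up to 6 genes per related list by size of difference, and Cdkn1a, Trp53, Trp63 and Mdm4. The genes and lists were chosen with earlier results of these data known. The fit was tested on simulated data. Alternatives covered filter, variance model, weights, scaling, block, arrays left out, threshold, probe set kind and unit of testing. Figures were drawn with matplotlib 3.10.9.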

Additional observations from a re-analysis of the deposited data

How the results depend on the processing

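No p53 target probe set was called in 15 of 16 alternatives, the exception being Perp at the stricter filter (1 probe set and 1 gene). Of 231 probe set values under alternatives 13 reversed, none of them called. The filter, variance model, weights, block and threshold leave the difference of a probe set unchanged, so those values could not reverse. The reversals came with an array left out and, for Sesn1, also with the mean of probe sets. With 1 array left out, the difference ran from -0.58 to 0.34 and -0.54 to 0.21 for both dimmer Ccng1 probe sets, -0.65 to 0.43 for Trp53inp1, -0.45 to 0.063, -0.37 to 0.45 and -0.36 to 0.23 for Sesn1, -0.40 to 1.01 for Gadd45a, -0.053 to 0.82 for Bmf and -0.67 to 0.031 for Bcl2l11. The mean of probe sets gave -0.073 for Sesn1. Counts of called genes with 1 array left out ran from 0 to 0 for the p53 targets, 1 to 2 for the further targets, 0 to 1 for the regulators, 0 to 0 for the BCL2 family, 0 to 2 for the paralogs and 1 to 6 for the desmosome genes, and over all probe sets from 82 to 981, against 216. The stricter filter gave 4 further targets, 2 paralogs and 405 probe sets. Without the variance trend there were 0 paralogs and 122 probe sets. At an adjusted p under 0.1 there were 5 further targets, 2 paralogs and 692 probe sets. Counting 1 probe set per gene gave 5 further targets, 2 paralogs and 5 desmosome genes, 3 higher and 2 lower, and the mean of probe sets 3 and 2 of the first 2 lists. The cause of these shifts in the counts was not tested. A stricter filter and testing by gene adjust over fewer tests. Dropping the probe sets open to more than 1 transcript also did so, with 16277 tested, and there 184 were called, against 216. Same-numbered arrays deviated together from their line's mean (r = 0.38 across 22519 probe sets, 2 pairs), but the labels do not say that a number marks a shared origin. A replicate block gave 1390 probe sets, with 0 p53 targets, 8 further targets, 1 regulator, 2 paralogs and 6 desmosome genes, and Perp at adjusted p = 0.0576 by limma. Low signal limits Bbc3, the second Trp53inp1 probe set and the probe sets under the filter.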
